A study of Canis lupus familiaris with 8 samples.

Results

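The genes described here make, carry, degrade or respond to retinoic acid, the acid form of vitamin A that acts as a hormone-like signal. The rule named 10 of them: the synthesis enzymes ALDH1A1, ALDH1A2 and ALDH1A3, the uptake receptor STRA6, the binding proteins CRABP1 and CRABP2, the degrading enzyme CYP26B1 and the nuclear receptors RARA, RARB and RARG. They were chosen by name as retinoic acid genes of retina, choroid and sclera. Of these, 9 were matched by symbol among the 12824 genes of the table, and CRABP1 was not analysed here. Bulk RNA sequencing was run on dog retina (Canis lupus familiaris) prepared in 2 ways, with 4 libraries each. All came from male wild-type Beagles of 31 weeks. In the fresh-frozen group, right eyecups were cut into 4 quadrants and embedded without fixation. In the PFA-fixed group, left eyecups lay for 3 h in 4% paraformaldehyde (PFA, a crosslinking fixative) and a further 24 h at 4 °C in a 2% solution, were cut into 4 quadrants, soaked first in 15% and then in 30% sucrose (24 h in either), and were then frozen in the medium used for the other group. RNA was extracted with a kit for small fresh samples in the first group and, after 18 h of proteinase K at 56 °C, with a kit for paraffin-embedded tissue in the second. Preparation, side of the eye and extraction kit changed together and cannot be told apart. The sources used here do not say which quadrant or which dog gave a library, so that p-values here reflect only how far these 8 libraries vary, which may be technical.

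Retinol travels in blood bound to the carrier RBP4 and enters cells through STRA6, which in the eye is known from the retinal pigment epithelium. Retinol dehydrogenases turn it into retinal, and the ALDH1A enzymes turn retinal into retinoic acid. CRABP proteins carry the acid inside the cell, CYP26 enzymes oxidise it, and RAR proteins, paired with RXR proteins, bind DNA and switch genes in response to it. In the developing vertebrate eye ALDH1A1 is known from the dorsal and ALDH1A3 from the ventral retina, and ALDH1A2 is known from the choroid, the vascular layer between retina and sclera. Retinal itself is also the chromophore of rhodopsin, the light receptor of rods.

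One gene each of synthesis, uptake, intracellular transport, degradation and reception was lower in PFA-fixed retina. ALDH1A2 fell by 6.69 and CRABP2 by 5.43 on the log2 scale, CYP26B1 fell by 2.44, STRA6 fell by 1.68 and RARG fell by 1.38. The levels of ALDH1A1, ALDH1A3, RARA and RARB did not pass the test. The test was limma on the deposited log2 CPM values, which are counts relative to a scaled library size, on a log2 scale. It was adjusted over all 12824 genes, and a gene was called at an adjusted p under 0.05. Of 9 genes, 5 were called, where 68.7% of all genes were called in either direction. All 5 were lower, where 34.7% of all genes were, and none was called higher with limma, where 33.9% of all genes were. At an unadjusted p under 0.05 the counts were 6 lower and 0 higher. The groups of the same 5 did not overlap, where 31.6% of all genes were lower without overlap. For ALDH1A2 this was set beforehand, since it exceeded 1 CPM in the fresh-frozen libraries only, as described below. These 5 were also lower by at least 2-fold, where 13.7% of all genes were called and lower by that much. The median change of the 9 was -1.38 beside -0.018 for all genes. These counts describe the genes, which were picked with earlier results known, and test nothing about the group. The split moved with the scaling: centring each library on the mean of 14 rod genes, which shifted the median change of all genes to -0.29, called 8 of the 9 lower, and centring on the library median called 5 lower and RARA higher.

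**Figure D1:**
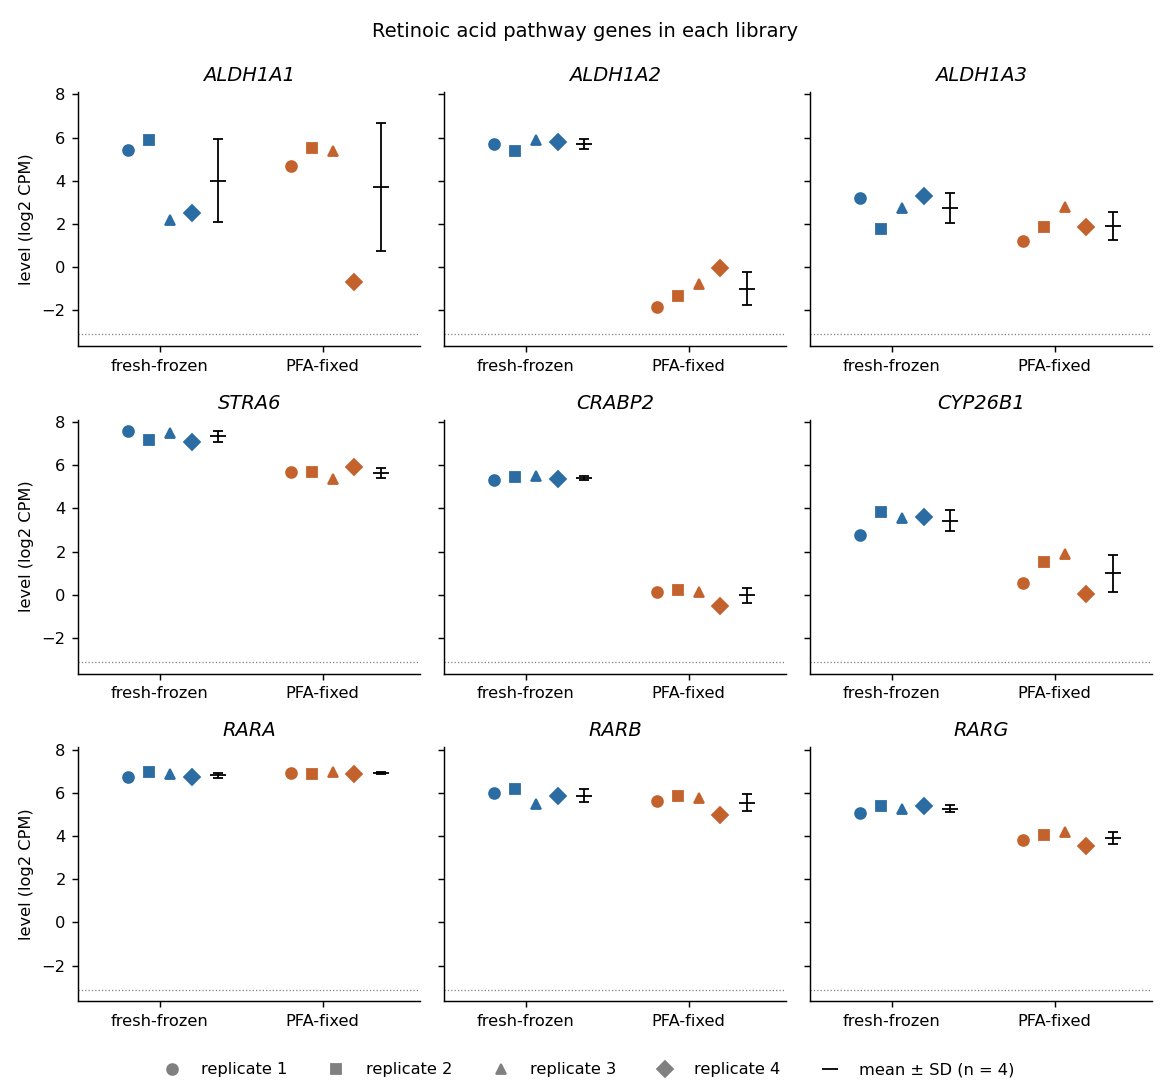
Level of each of the 9 genes in log2 CPM (vertical axis, shared by all panels) in 4 fresh-frozen and 4 PFA-fixed libraries. Symbols are replicates, black bars the mean ± SD (n = 4), and the dotted line is the lowest value of the table (-3.12). ALDH1A2, CRABP2, CYP26B1, STRA6 and RARG do not overlap between the groups, whereas ALDH1A1 spans from -0.70 to 5.52 within the fixed group.

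The 9 genes were read against the following state of the libraries. Effective depth, estimated from the spacing of low values, was 21670000 to 22750000 reads in fresh-frozen and 11030000 to 15410000 in PFA-fixed libraries. Rod genes, the defining transcripts of retina, were abundant in both groups: the 14 listed summed to 32240 to 37163 CPM in fresh-frozen and 35732 to 39541 CPM in fixed libraries, with 7 called higher and 3 lower. Of these rod counts, the 7 fell to 3 with rod centring, and the 3 ranged from 0 (without PFA-fixed replicate 1, or with median centring) to 5 (quantile normalization), being 1 when replicate 2 of either group or PFA-fixed replicate 4 was left out. The listed genes of the layers outside the neural retina, and those of vessel cells, were lower in fixed libraries. All 8 sclera and fibroblast genes were called lower, from 6798 to 9979 CPM in sum to 28.6 to 45.9 CPM. All 7 measured pigment epithelium genes were called lower, from 1636 to 2566 CPM to 162 to 218 CPM. The 5 melanin genes fell from 1297 to 2028 CPM to 12.2 to 20.3 CPM, the 6 endothelial genes from 446 to 698 CPM to 70.6 to 91.5 CPM, and the 5 pericyte and smooth muscle genes from 1504 to 2239 CPM to 344 to 420 CPM. Of 8 Müller glia genes 6 were called lower, and of 8 amacrine genes 4 were called higher and 3 lower, where 33.9% and 34.7% of all genes were. With rod centring none of the amacrine genes was called higher with limma and 3 were lower. LUM and DPT of the sclera list and TYR and MLANA of the melanin list lay under 1 CPM in all 4 fixed libraries. They were measured through the fresh-frozen group, so that they had to be lower. In none of the lists above was a marker at the table's lowest value in all 4 fixed libraries. The part of these markers in the results below was not tested. In bulk tissue, fewer cells of a type and less RNA per cell cannot be told apart.

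The largest change of the set was that of ALDH1A2, the retinal dehydrogenase known from choroid. Its level was 5.69, 5.39, 5.89 and 5.80 log2 CPM in fresh-frozen replicates 1 to 4, and -1.83, -1.35, -0.78 and -0.019 in PFA-fixed replicates 1 to 4. All 4 fixed libraries lay under 1 CPM and the fresh-frozen libraries held 41.8 to 59.5 CPM. It fell by 6.69 ± 0.33 on the log2 scale (SE, n = 4 each; limma adjusted p = 9.87e-09). This gene exceeded 1 CPM in the fresh-frozen libraries only, and every gene of the table exceeded 1 CPM in at least 4 libraries. It was thus measured through the group where it is high, and its groups had to differ. The fixed values stood for an estimated 2.05, 3.07, 7.17 and 10.8 reads, against 909 to 1318 reads in fresh-frozen libraries, and the SD within the fixed group (0.78) was larger than in the fresh-frozen group (0.22). With log2(CPM + 1) the fall was 5.10.

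ALDH1A1, the form known from dorsal retina, was not called between the preparations, and its levels spread widely inside each of them. It stood at 5.41, 5.89, 2.20 and 2.50 log2 CPM in fresh-frozen replicates 1 to 4 and at 4.69, 5.52, 5.39 and -0.70 in PFA-fixed replicates 1 to 4. In CPM, 5 libraries held 25.9 to 59.2, fresh-frozen replicates 3 and 4 held 4.59 and 5.64, and PFA-fixed replicate 4 held 0.614, or an estimated 6.19 reads. The difference was -0.27 ± 1.29 (SE, n = 4 each; limma adjusted p = 0.862), with a 95% interval from -3.09 to 2.54, which leaves room for large changes in either direction. Its sign depended on single libraries, being 1.20 without PFA-fixed replicate 4, and 0.20 and 0.36 when fresh-frozen replicate 1 or 2 was left out, with no call in any case. The pooled SD within the groups was 2.50 for ALDH1A1, the third largest of all 12824 genes, whose median was 0.163, and it was also the third largest with log2(CPM + 1).

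Genes of the dorsal and ventral retina were set beside ALDH1A1, because eyecups were cut into quadrants. TBX5, a transcription factor of dorsal retina, stood at 3.88, 4.16, 1.19 and -0.74 log2 CPM in fresh-frozen replicates 1 to 4 and at 4.51, 5.02, 5.19 and 0.40 in PFA-fixed replicates 1 to 4. The 5 libraries with the highest ALDH1A1 were the 5 with the highest TBX5. VAX2, a transcription factor of ventral retina, stood at 1.28, -1.94, 2.03 and 4.10 in the fresh-frozen and at -2.45, -1.70, -1.98 and 4.19 in the PFA-fixed libraries. It was highest in fresh-frozen replicate 4 and PFA-fixed replicate 4, which held the lowest TBX5. By pooled SD within the groups, VAX2 ranked 2 (2.83) and TBX5 ranked 4 (2.30) among all genes, next to ALDH1A1. Neither was called between the preparations as fitted (TBX5 1.66 ± 1.18, limma adjusted p = 0.233; VAX2 -1.86 ± 1.47, limma adjusted p = 0.280; SE, n = 4 each). Without PFA-fixed replicate 4 both were called, TBX5 at 2.78 (limma adjusted p = 0.0226) and VAX2 at -3.41 (limma adjusted p = 0.0142). Without fresh-frozen replicate 4 they were 0.70 and -0.95, neither called, and the other single libraries gave values in between. With the replicate number as a block both were called (limma adjusted p = 0.0107 and 0.0439), though nothing in the labels says that the number pairs libraries. Of the other position genes, VAX1 also spread, from -0.82 to 1.36 log2 CPM in fresh-frozen and from -2.35 to 0.88 in fixed libraries, and the rest spread less. VAX1, also listed as ventral, did not follow VAX2. It was highest of the fresh-frozen libraries in replicate 1 and lowest of the fixed ones in PFA-fixed replicate 4. Of the other ventral genes in PFA-fixed replicate 4, BMPR1B was lowest of the fixed group (4.13), EPHB3 highest (2.31) and EPHB2 in between (5.95). The other dorsal genes did not all follow TBX5 either. In PFA-fixed replicate 4, BMP4 (2.08) and TBX3 (2.72) were highest of the fixed group, and TBX2 (5.68) and EFNB2 (3.09) lowest. BMP4 was also higher in fresh-frozen replicates 3 and 4 (4.66 and 4.44) than in replicates 1 and 2 (4.22 and 4.00). TBX2 lay between 6.50 and 6.73 log2 CPM in fresh-frozen libraries and between 5.68 and 6.20 in fixed ones, and EPHB2 between 4.67 and 5.06 and between 5.87 and 6.06. The quadrant behind each library is not given in the sources used here, and its part in these values was not tested.

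**Figure D2:**
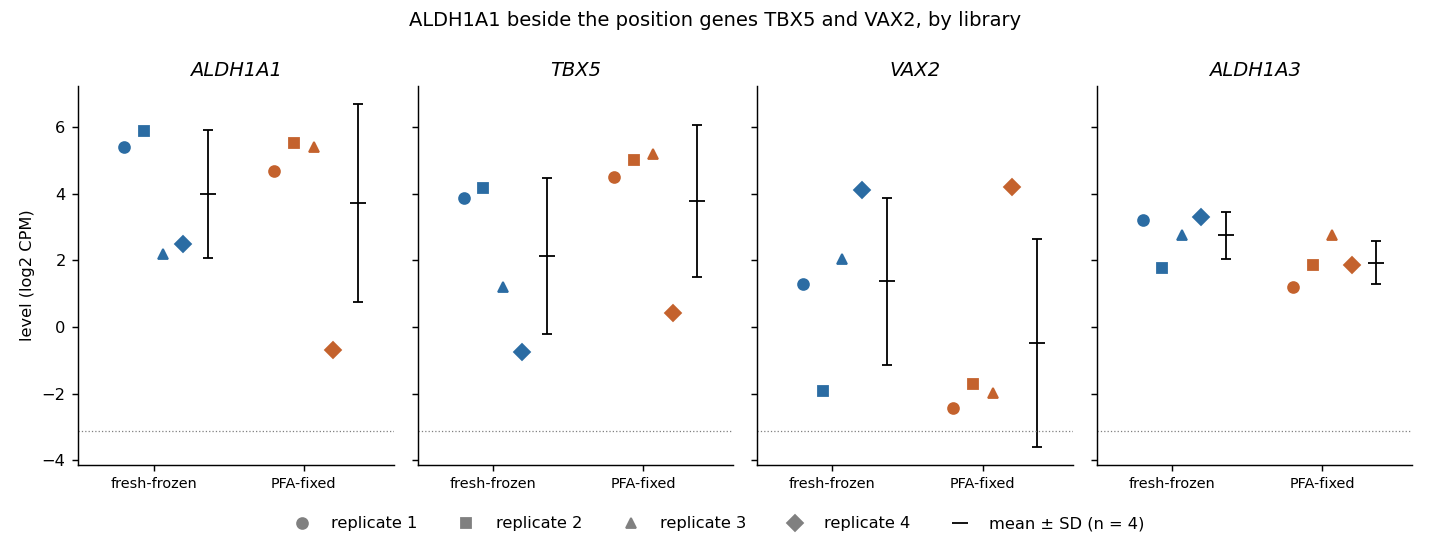
Level in log2 CPM (vertical axis, shared) of ALDH1A1, of the dorsal gene TBX5, of the ventral gene VAX2 and of ALDH1A3 in each library, with replicate symbols and mean ± SD (n = 4). Fresh-frozen replicates 3 and 4 and PFA-fixed replicate 4 are low for both ALDH1A1 and TBX5, and replicate 4 of either group is high for VAX2.

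ALDH1A3, the form known from ventral retina, stood at or below 3.29 log2 CPM in every library. Fresh-frozen replicates 1 to 4 held 3.20, 1.77, 2.74 and 3.29 log2 CPM, and PFA-fixed replicates 1 to 4 held 1.20, 1.85, 2.77 and 1.86. The groups overlapped, since fresh-frozen replicate 2 lay below 3 of the fixed libraries. The difference was -0.83 ± 0.37 (SE, n = 4 each; limma adjusted p = 0.0668), with a 95% interval from -1.64 to -0.011 before adjustment. It was called when fresh-frozen replicate 2 was left out (-1.16, limma adjusted p = 0.00826), without PFA-fixed replicate 3 (-1.11, limma adjusted p = 0.0181) and with rod centring (-1.09, limma adjusted p = 0.0236). Over the 15 alternatives its adjusted p with limma ran from 0.00826 to 0.266.

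Within a library, the ratio of ALDH1A2 to ALDH1A3 was 2.94 ± 0.54 on the log2 scale in fresh-frozen and -2.92 ± 0.72 in fixed retina (SD, n = 4 each; exact permutation p = 0.0286, two-sided, the smallest that 4 against 4 allows). Such ratios do not depend on how libraries are centred, and 10 of them were compared, a family chosen after seeing the data. Adjusted over the 10, that p was 0.0571, which no ratio went below. ALDH1A2 itself had to differ, as given above, so that this p adds no support to its fall. The ratio of ALDH1A3 to ALDH1A1 was -1.25 ± 2.35 in fresh-frozen and -1.80 ± 2.95 in fixed libraries (SD, n = 4 each; exact permutation p = 0.886), and varied from library to library with ALDH1A1.

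STRA6, the membrane receptor that takes up retinol from RBP4, fell by 1.68 ± 0.13 (SE, n = 4 each; limma adjusted p = 4.72e-07). It stood at 7.58, 7.19, 7.50 and 7.06 log2 CPM in fresh-frozen replicates 1 to 4 and at 5.67, 5.67, 5.36 and 5.91 in PFA-fixed replicates 1 to 4. The groups did not overlap, and even the fixed libraries held 41.0 to 59.9 CPM. Most pigment epithelium genes fell further than STRA6, though RGR, which Müller glia also express, fell by 0.48. The visual cycle isomerase gene RPE65 fell by 4.89 and the retinol esterifying enzyme gene LRAT fell by 5.27. The log2 ratio of STRA6 to the mean of the 7 pigment epithelium genes was -0.22 ± 0.23 in fresh-frozen and 1.76 ± 0.45 in fixed retina (SD, n = 4 each), a rise of 1.98 with no overlap between the groups (exact permutation p = 0.0286, or 0.0571 when adjusted over the 10 ratios).

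CRABP2, the protein that delivers retinoic acid to its receptors in the nucleus, had 5.32, 5.44, 5.52 and 5.37 log2 CPM in fresh-frozen replicates 1 to 4. In PFA-fixed replicates 1 to 4 it had 0.14, 0.21, 0.11 and -0.52. The SD among fresh-frozen libraries was 0.087, and the fixed libraries stood for an estimated 7.21 to 14.8 reads. CRABP2 fell by 5.43 ± 0.18 (SE, n = 4 each; limma adjusted p = 5.87e-10). Both CRABP2 and ALDH1A2 were compared with the 8 sclera and fibroblast genes, whose median change was -7.46. The 8 include LUM and DPT, which lay under 1 CPM in all 4 fixed libraries and had to fall. The log2 ratio of CRABP2 to the mean of the 8 rose from -3.05 ± 0.16 to -1.24 ± 0.47 (SD, n = 4 each), without overlap between the groups. The exact permutation p of this ratio was 0.0286, and 0.0571 when adjusted over the 10 ratios. The ratio of ALDH1A2 to the mean of the 8 was -2.77 ± 0.25 and -2.21 ± 0.77 (SD, n = 4 each), a difference of 0.56 that overlapped between the groups (exact permutation p = 0.314, adjusted p = 0.393). With log2(CPM + 1) that difference was 1.32, and without PFA-fixed replicate 4 it was 0.28.

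**Figure D3:**
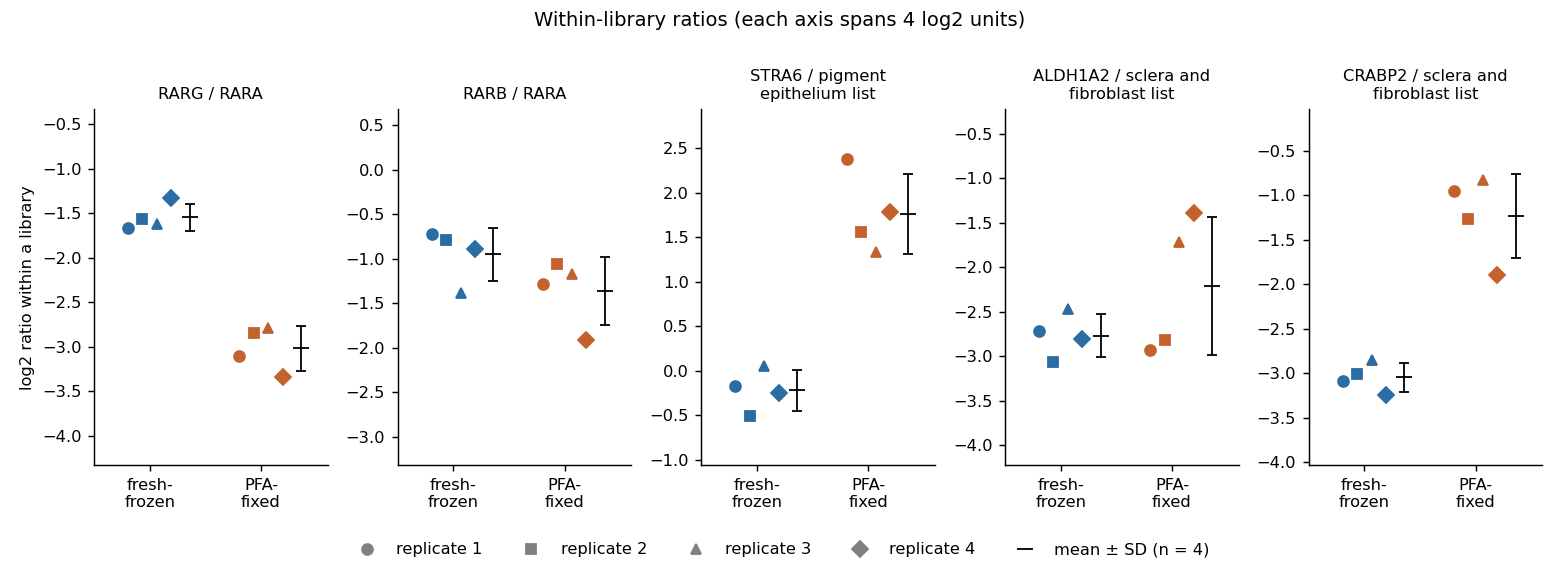
Log2 ratios within each library (vertical axes, each spanning 4 log2 units) for RARG and RARB over RARA, STRA6 over the mean of the pigment epithelium genes, and ALDH1A2 and CRABP2 over the mean of the sclera and fibroblast genes, with replicate symbols and mean ± SD (n = 4). RARG over RARA, STRA6 over pigment epithelium and CRABP2 over sclera and fibroblast genes separate the groups, and the other 2 ratios overlap.

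CYP26B1, a cytochrome that oxidises retinoic acid, fell by 2.44 ± 0.38 (SE, n = 4 each; limma adjusted p = 0.000140). Its level was 2.75, 3.83, 3.55 and 3.62 log2 CPM in fresh-frozen replicates 1 to 4, and 0.57, 1.54, 1.88 and 0.027 in PFA-fixed replicates 1 to 4. The highest fixed library lay below the lowest fresh-frozen one, and the fixed values rested on an estimated 11.2 to 55.0 reads. Its relative CYP26A1, which degrades retinoic acid as well, fell by 1.72 ± 0.30 (SE, n = 4 each; limma adjusted p = 0.000301), from 5.21 ± 0.57 to 3.49 ± 0.55 log2 CPM (SD, n = 4 each). The ratio of CYP26B1 to CYP26A1 was -1.77 ± 0.73 and -2.49 ± 1.40 (SD, n = 4 each; exact permutation p = 0.400), a difference smaller than the spread between the fixed libraries.

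Of the 3 receptors for retinoic acid, RARG was called lower as fitted, and RARA and RARB were not called. RARA had the smallest pooled SD within the groups of the 9 genes (0.082). It stood at 6.73, 6.96, 6.85 and 6.73 log2 CPM in fresh-frozen replicates 1 to 4 and at 6.91, 6.89, 6.96 and 6.88 in PFA-fixed replicates 1 to 4. The difference was 0.089 ± 0.068 (SE, n = 4 each; limma adjusted p = 0.259), with a 95% interval from -0.059 to 0.24. Its direction depended on the scaling: it was called higher with median centring (0.17, limma adjusted p = 0.0476) and lower with rod centring (-0.18, limma adjusted p = 0.0493).

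RARB, itself a gene that retinoic acid induces, stood at 6.01, 6.17, 5.47 and 5.84 log2 CPM in fresh-frozen replicates 1 to 4 and at 5.62, 5.84, 5.78 and 4.96 in PFA-fixed replicates 1 to 4. The groups overlapped, with PFA-fixed replicate 4 the lowest of the 8. The difference was -0.32 ± 0.19 (SE, n = 4 each; limma adjusted p = 0.158), with a 95% interval from -0.74 to 0.10. Without fresh-frozen replicate 3 it was -0.45 and called (limma adjusted p = 0.0497), and with rod centring it was -0.59 and called (limma adjusted p = 0.00635). Without PFA-fixed replicate 4 it was -0.12. Its adjusted p ran from 0.00635 to 0.467 over the 15 alternatives with limma.

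RARG fell by 1.38 ± 0.14 (SE, n = 4 each; limma adjusted p = 3.79e-06). It held 5.07, 5.40, 5.23 and 5.40 log2 CPM in fresh-frozen replicates 1 to 4 and 3.80, 4.05, 4.17 and 3.54 in PFA-fixed replicates 1 to 4, with every fixed library below every fresh-frozen one. The log2 ratio of RARG to RARA within a library went from -1.55 ± 0.15 to -3.02 ± 0.25, and that of RARG to RARB from -0.60 ± 0.32 to -1.66 ± 0.19 (SD, n = 4 each), both without overlap between the groups (exact permutation p = 0.0286 for each, adjusted p = 0.0571 over the 10 ratios). The ratio of RARB to RARA was -0.95 ± 0.30 and -1.36 ± 0.38 (SD, n = 4 each) and overlapped (exact permutation p = 0.143, adjusted p = 0.204).

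**Figure D4:**
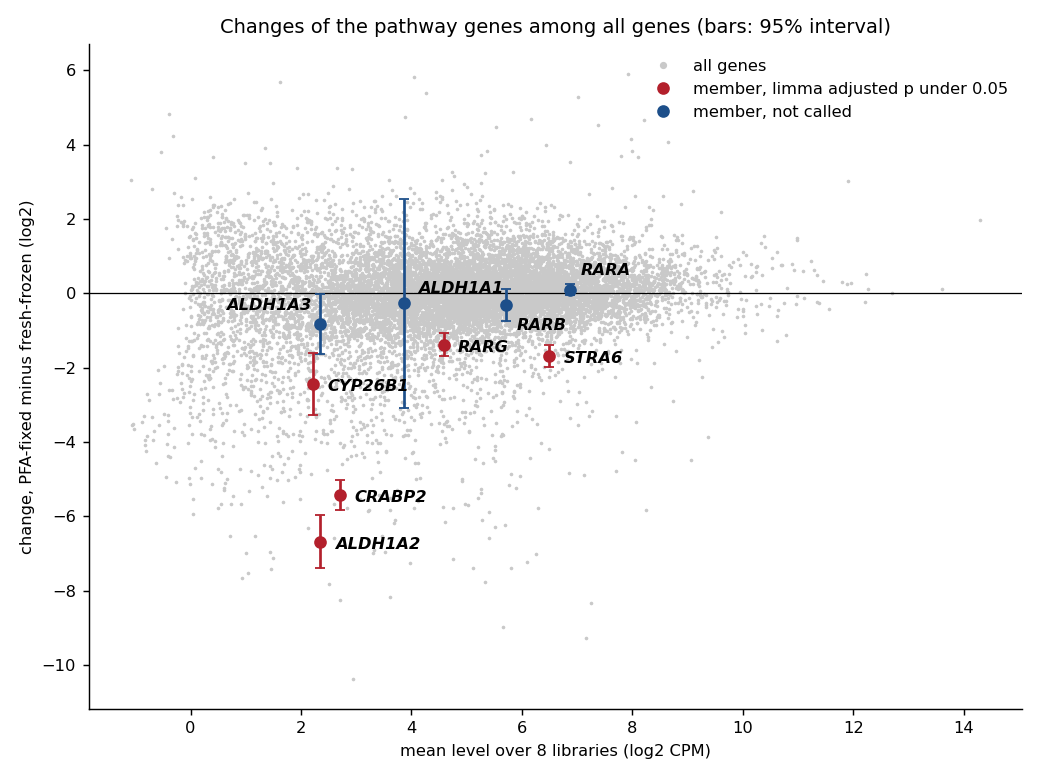
Change between PFA-fixed and fresh-frozen retina on the log2 scale (vertical axis) against the mean level over 8 libraries in log2 CPM (horizontal axis) for all 12824 genes in grey and the 9 retinoic acid genes in colour, with 95% intervals. ALDH1A2 and CRABP2 have the largest falls of the 9 at -6.69 and -5.43, RARA lies near 0, and ALDH1A1 has the widest interval.

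Among all genes, the 3 whose level moved most like that of ALDH1A2 over the 8 libraries were SIX2, ALX4 and CHAD. Likeness was the root mean square difference of levels after each gene was centred on its own mean, and it was 0.27, 0.30 and 0.41 on the log2 scale. SIX2 and ALX4, both homeobox transcription factors, went from 3.99 ± 0.30 to -2.55 ± 0.77 and from 5.06 ± 0.089 to -2.07 ± 0.83 log2 CPM (SD, n = 4 each). With log2(CPM + 1) the fall of SIX2 was 3.83 in place of 6.54. CHAD, a cartilage matrix protein, went from 5.61 ± 0.57 to -0.99 ± 1.02 log2 CPM (SD, n = 4 each). SIX2, ALX4 and CHAD, like ALDH1A2, had a mean under 1 CPM in the fixed group. Every gene of the table exceeded 1 CPM in at least 4 libraries, so that genes this low after fixation were measured through the fresh-frozen group. Their likeness is therefore partly set by how genes entered the table. No member was called higher with limma, so that the same search was not made for a rise.

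Around these genes, 39 of 59 listed retinoid pathway genes were measured, and 23 were called lower and 8 higher, where 34.7% and 33.9% of all genes were. Their median change was -0.34, beside -0.018 for all genes. Of the 39, 38 exceeded 1 CPM in all 8 libraries. Rod centring lowered every change by the same 0.27, so that small rises shrank and small falls grew. In the list of enzymes and binding proteins that form, hold and store retinol and retinal, 8 of the 11 measured fell, 2 rose and the median change was -1.16. The 3 with the largest falls, LRAT, RPE65 and RLBP1, are known from pigment epithelium, RLBP1 also from Müller glia. LRAT and RPE65 are themselves on the pigment epithelium marker list and RLBP1 on the Müller glia list. Those lists, whose markers were all or mostly lower, are therefore no separate evidence here. LRAT, which makes retinyl esters for storage, went from 7.90 ± 0.28 to 2.63 ± 0.66 log2 CPM (SD, n = 4 each). RDH8, the photoreceptor enzyme that reduces retinal after bleaching, rose by 1.39 ± 0.10 (SE, n = 4 each), and RDH13 rose by 1.13. RDH11, highest of them in mean log2 CPM over all libraries, a scale with no correction for gene length, differed by 0.08 (limma adjusted p = 0.233), was called higher with median centring (0.16, limma adjusted p = 0.0269) and had the opposite sign with rod centring (-0.19, limma adjusted p = 0.0560). RDH10, which supplies retinal to the ALDH1A enzymes, fell by 1.40. RLBP1, the retinal-binding protein of pigment epithelium and Müller glia, fell by 3.17, and RDH5, a dehydrogenase of the visual cycle in pigment epithelium, fell by 1.99.

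The 4 measured carriers gave 2 falls and no rise, where 34.7% of all genes fell and 33.9% rose. TTR, the partner of RBP4 in blood, fell by 4.84 ± 0.39 and RBP3, the retinoid carrier between photoreceptors and pigment epithelium, fell by 0.98 ± 0.088 (SE, n = 4 each). Among 6 RXR and related receptor genes the median was -0.12, from 3 falls and 1 rise, to be read beside the same shares of all genes. RXRG, a partner known from cones, fell by 1.25, RXRB rose by 0.74, and RORB, highest in mean log2 CPM, fell by 0.28. RXRA, the general partner of the RAR proteins, fell by 0.37. The 9 co-regulators lay between -0.71 and 0.45 with a median of -0.18, and 4 of them fell and 2 rose, a share of 44.4% lower beside 34.7% of all genes. NCOR1, a corepressor of unliganded receptors and highest of the list in mean log2 CPM, rose by 0.44, the acetyltransferase EP300 rose by 0.45, and TBL1XR1 fell by 0.71. With rod centring the rises of NCOR1 and EP300 were 0.18 each, that of RXRB was 0.47 and the change of RORB was -0.55, all still called, and with quantile normalization EP300 rose by 0.27.

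Of 18 listed genes known to respond to retinoic acid in other settings, 10 were measured, and 7 fell, 3 rose and none was left uncalled (median -1.49), where 34.7% of all genes fell and 33.9% rose. The crosslinking enzyme gene TGM2 fell by 3.95, from 6.04 ± 0.52 to 2.09 ± 0.32 log2 CPM (SD, n = 4 each). Both CYP26A1 and DHRS3, which lower retinoic acid when it is abundant, were lower: CYP26A1 fell by 1.72 and DHRS3 fell by 1.16. The orphan receptors NR2F1 and NR2F2 had changes of -1.42 and -1.56, the receptor tyrosine kinase RET had -1.64 and the chemerin gene RARRES2 had -1.93, all called with limma. MEIS2 rose by 0.69 and MEIS1 by 1.03, both homeobox genes active in retinal neurons, and with rod centring the rise of MEIS2 was 0.42. STRA8, a gene known from germ cells, was at the lowest value in 2 fresh-frozen libraries and at -2.27 and -1.18 log2 CPM in the other two, and at 0.60 to 1.92 log2 CPM in the fixed libraries. It lay under 1 CPM in all 4 fresh-frozen libraries and was measured through the fixed group, where it is high, so that it had to differ. Its fitted change of 3.79 depends on the lowest value of the table, and with log2(CPM + 1) it was 1.58.

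**Figure D5:**
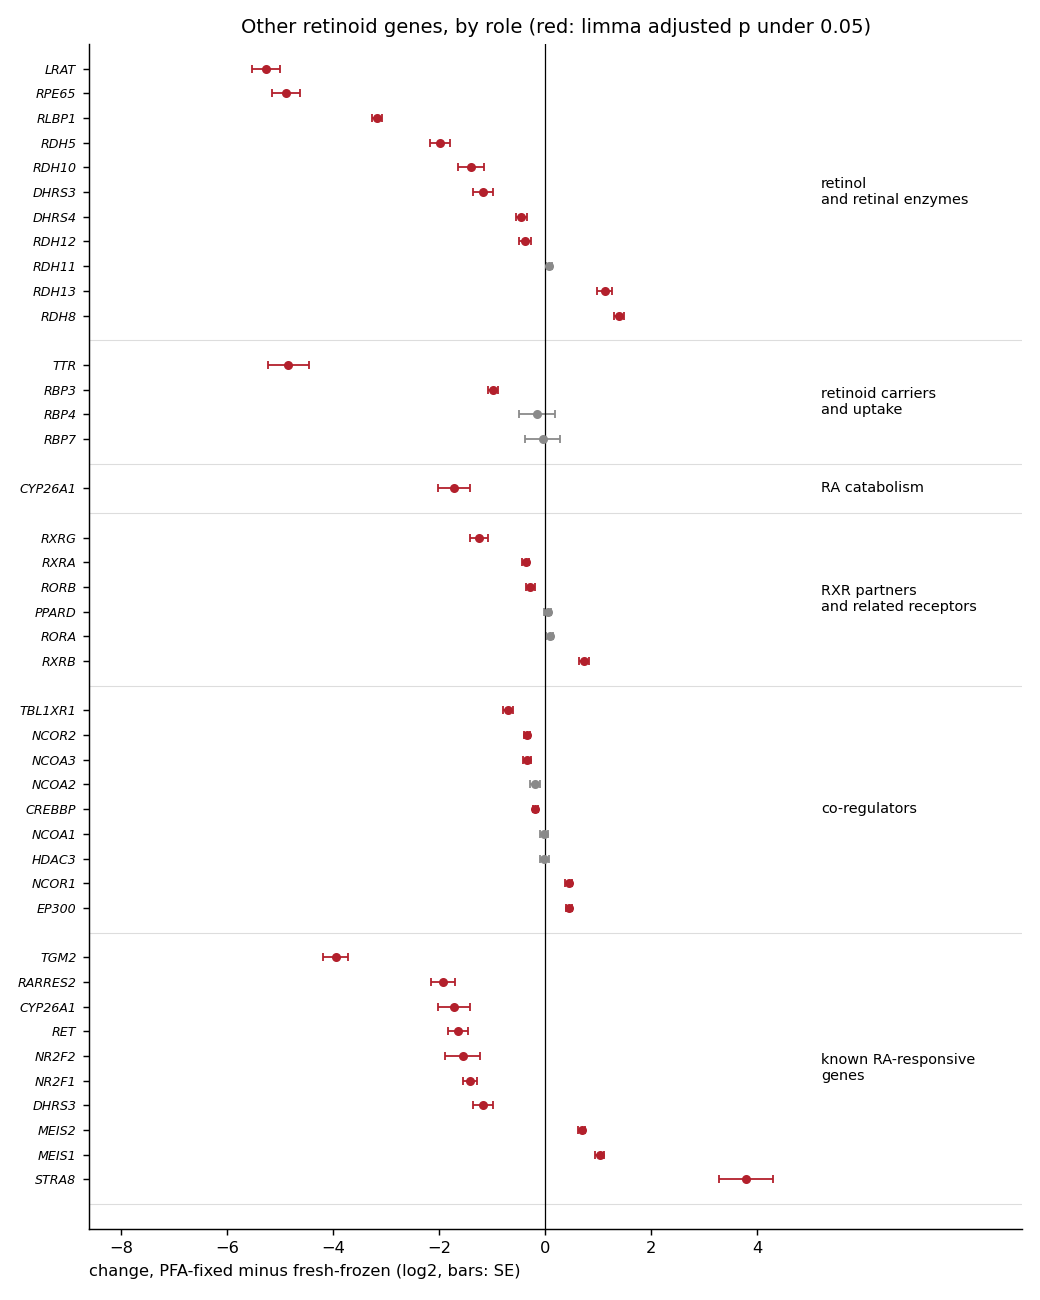
Change between PFA-fixed and fresh-frozen retina on the log2 scale (horizontal axis, bars are SE) for the 39 measured genes of the other pathway lists, grouped by role, with CYP26A1 and DHRS3 shown in both of their lists. Red points are called with limma at an adjusted p under 0.05, and they run from -5.27 for LRAT to 3.79 for STRA8, which lay under 1 CPM in every fresh-frozen library and had 1.58 with log2(CPM + 1).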

How the data were processed

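The deposited table holds log2 CPM per gene and library, made by the authors. kallisto 0.48.0, edgeR and limma are named in the submitters' processing notes, with no role. The sources used here do not state the transcript reference, strand setting or filter. The 8 value columns were tied to libraries by title. All libraries share a lowest value of -3.12, so that small prior counts were added before the log and changes of low genes are understated. Effective depth was estimated from the spacing of low values, searched between 0.03 and 0.15 CPM. Of values up to 20 reads, 60.4% to 66.7% were whole within 0.1 of a read, so no count test was run. Differences were tested in R 4.3.3 by limma (3.58.1, trend on mean level), group as the only term, Benjamini-Hochberg adjustment over 12824 genes and a threshold of 0.05. The step was also run on simulated data with independent noise and few changed genes. These data differ in having many called genes and libraries of unknown origin, so that the run does not check the step for this design. For ratios, all 70 assignments were enumerated in an exact two-sided permutation test. Members and lists were chosen with earlier results of these data known. Genes named from lists are those with the largest called rise and fall and the highest mean level, and others named were chosen after their values were seen. Alternatives left out each library, added the replicate number, or changed scaling, trend, pseudocount or filter. One listed gene is not reported here. No coordinates are given, since the build is not stated. The replicate numbers were not taken to pair libraries.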

Additional observations from a re-analysis of the deposited data

Results flagged for a closer look

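In 5 of 58 groups of 4 libraries examined, 1 library stood apart from the other 3 by a gap beyond the 95% critical value of Dixon's test, which chance gives in about 1 of 20 groups. The examined genes included TBX5 and VAX2, which were added outside the naming rule and are both flagged. The share of flags can therefore not be read against chance. Of the 5 flags, 4 were in PFA-fixed replicate 4. ALDH1A1 was at -0.70 log2 CPM there and at 4.69 to 5.52 in the other fixed libraries. TBX5 was at 0.40, against 4.51 to 5.19, and VAX2 at 4.19, against -2.45 to -1.70. CRABP2 was at -0.52, against 0.11 to 0.21. TGM2 was at 6.81 in fresh-frozen replicate 1, and the remaining fresh-frozen libraries had 5.72 to 5.84.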

How the results depend on the processing

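The falls of ALDH1A2, CRABP2, CYP26B1, RARG and STRA6 kept their direction and their call under all 15 alternatives. They ran from -7.01 to -5.10, -5.70 to -4.45, -2.73 to -1.94, -1.65 to -1.26 and -1.95 to -1.58. For ALDH1A2 this adds no support, since its groups had to differ, as given above. Rod centring raised the members called lower from 5 to 8, and median centring raised those called higher from 0 to 1. Rod centring turned RARA to -0.18 and RDH11 to -0.19. ALDH1A1 turned to 0.20, 0.36 and 1.20 without fresh-frozen replicate 1, fresh-frozen replicate 2 and PFA-fixed replicate 4. Leaving out single libraries moved it between -0.87 and 1.20. The cause of these turns was not tested. Of all genes, 4353 rose and 4451 fell as fitted, and 2665 rose and 6058 fell with rod centring. With the replicate number as a block, 8799 genes were called in place of 8804, and 5 members were lower. Same-numbered libraries correlated across genes by 0.050, 0.15, -0.089 and 0.22 in their deviations from the group means, and differently numbered ones by -0.27 to 0.22. With 4 libraries a group these values cannot decide whether the number pairs libraries. It was treated as a name only, since nothing in the labels says that it pairs them. In that block TBX5 and VAX2 were called (limma adjusted p = 0.0107 and 0.0439). With log2(CPM + 1) the ratio of ALDH1A2 to sclera and fibroblast genes changed by 1.32 in place of 0.56, and that of ALDH1A2 to ALDH1A3 by -4.41 in place of -5.86. Depth limits ALDH1A2 and CRABP2 in fixed libraries, at 2.05 to 14.8 estimated reads.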

Other observations

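Several retinoid genes were also lowest in PFA-fixed replicate 4, and are named after their values were seen. RBP4, the blood carrier of retinol, stood at 8.99 log2 CPM there and at 9.79 to 10.39 in the other fixed libraries. In fresh-frozen replicates 3 and 4 it stood at 9.35 and 9.65, and in replicates 1 and 2 at 10.53 and 10.63. RDH10 stood at 4.50 in PFA-fixed replicate 4, against 4.99 to 5.65, and NR2F2, an orphan receptor gene, at 3.56, against 5.07 to 5.42. Other retinoid genes went the other way. CYP26A1 had its highest fixed value, 4.15 log2 CPM, in PFA-fixed replicate 4 and its highest fresh-frozen value, 5.93, in replicate 3. Also highest of the fixed group in PFA-fixed replicate 4 were STRA6 (5.91), ALDH1A2 (-0.019), RPE65 (5.28), LRAT (3.25), RLBP1 (5.94) and RXRG (4.97). The genes named in either direction are examples, so that they give no general direction for that library.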
